A study of Mus musculus with 10 samples.

Results

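The genes described here are 34 genes of the unfolded protein response and the integrated stress response, named by symbol and found through their Ensembl identifiers in a table of 38887 genes. All 34 passed the filter on low counts, as members of 14346 genes tested. They were measured by RNA sequencing of bulk hematopoietic progenitor cells, taken from the marrow of mice bearing Lewis lung carcinoma, which is a mouse tumour line grown by transplantation. Mice of the vehicle group (5 libraries, titled untreated) received vehicle, and mice of the CK2i group (5 libraries) received the CK2 inhibitor BMS-595 at 60 mg/kg (CK2 is a serine and threonine kinase), both for 2 weeks. Both groups carried the tumour, so no comparison with tumour-free marrow is made. The labels give neither the age of the mice, the way the progenitors were sorted, nor whether each library came from a mouse of its own. The p-values therefore rest on the spread among these libraries, part of which may be technical. Values are CPM (counts scaled to a common library total, with TMM factors) unless FPKM, which also corrects for transcript length, is named.

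Proteins that enter the secretory pathway fold in the endoplasmic reticulum (ER) with the help of chaperones and disulfide isomerases. When unfolded proteins build up there, its membrane sensors respond: IRE1 (gene Ern1) splices the messenger of the transcription factor XBP1, ATF6 is cut to release a transcription factor, and PERK (gene Eif2ak3) phosphorylates the translation factor eIF2. ATF6 and spliced XBP1 raise chaperone and degradation genes. Phosphorylated eIF2, which other kinases also produce on amino acid shortage, heme shortage or viral RNA, slows translation in general while it favours translation of ATF4. ATF4 then raises amino acid transporters, synthetic enzymes and the factor CHOP (gene Ddit3). Splicing of Xbp1, cleavage of ATF6 and phosphorylation of eIF2 leave no direct trace in counts per gene, and transcript levels do not measure them.

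Total counts ran from 37569160 to 43636152 in vehicle and from 34127674 to 40811539 in CK2i libraries. The progenitor markers Kit, Cd34, Flt3, Myb, Gata2 and Cd27 were present in all libraries, with summed levels of 1017 to 1242 CPM in vehicle and 1072 to 1144 CPM in CK2i libraries. Among them Kit fell (-0.26 log2, edgeR adjusted p = 0.0302; called in 6 of 10 fits that each left out 1 library), and Gata2 and Flt3 differed by -0.31 and 0.36 without passing (edgeR adjusted p = 0.0602 and 0.0640). DESeq2 called 1 of the 6 higher and 2 lower. On the leading principal component over all tested genes, CK2i 2 and CK2i 5 lay far from the rest, at 43.26 and 43.68; the remaining CK2i libraries lay between -4.10 and 12.48, and vehicle ranged from -29.62 to -9.37. In cells measured in bulk, a change in the make-up of the cells and a change of RNA per cell cannot be told apart.

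The stress-response genes differed little between the groups. Of the 34 genes, 4 rose in CK2i: Calr and P4hb, a lectin chaperone and a disulfide isomerase of the ER, Atf6, a stress sensor, and Trib3, a pseudokinase that ATF4 and CHOP induce. By edgeR 0 of the 34 fell, beside 6.76% of all tested genes. At an unadjusted p under 0.05 by edgeR, 2 were lower and 8 higher, beside 34.6% of all tested genes in either direction. By DESeq2 5 were higher and 2 lower, and by limma on log2(FPKM + 1) 2 and 0. The share that rose, 11.8%, stood beside 6.43% of all tested genes called higher, and the same 11.8% called in either direction stood beside 13.2%, so that the count of calls lay near the background. The median log2 difference was 0.05, beside -0.00062 for all tested genes, with 22 differences above 0 and 12 below. The groups did not overlap for Calr, P4hb and Trib3, with higher values in CK2i (5.18% of all tested genes), and for 0 members with lower values in CK2i (5.76% of all tested genes).

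None of the 4 calls held across the fits that left out a library. P4hb was called in 4 of the 10 fits, Calr in 3, Trib3 in 2 and Atf6 in 1. Without vehicle 1, vehicle 3, vehicle 4, vehicle 5, CK2i 2 or CK2i 5, each left out alone, 0 members were called; the count of all genes called then fell from 1892 to between 446 and 758. The members called numbered 2 without vehicle 2 (Calr and P4hb), 1 without CK2i 1 (P4hb) and 3 without CK2i 4. Without CK2i 3 there were 5 higher, with Ern1 added, and 4 lower, namely Creld2, Derl1, Derl3 and Ppp1r15a. With CK2i 2 and CK2i 5 both left out, 0 members and 175 of all genes were called. Without the filter on low counts P4hb alone was called, and with a surrogate variable in the fit none was.

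In the edgeR fit with group as the only term, the size of the difference was bounded closely for most of the genes. The 95% interval of the difference, taken from its standard error in the edgeR fit, lay within 1.5-fold in both directions for 28 of 34 genes, beside 67.6% of all tested genes. These intervals narrow with the abundance of a transcript, and most of the genes were abundant. They hold for that fit alone. With a surrogate variable in the fit, the differences of Herpud1, Ddit3 and Asns lay above their intervals and that of Pdia3 below its own. The 6 genes whose intervals reached past 1.5-fold were Derl3, Ern1, Atf3, Ppp1r15a, Chac1 and Trib3. For Hspa5, the chaperone BiP and the customary readout of the unfolded protein response, the interval ran from 0.928 to 1.30 times the vehicle level.

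**Figure D1:**
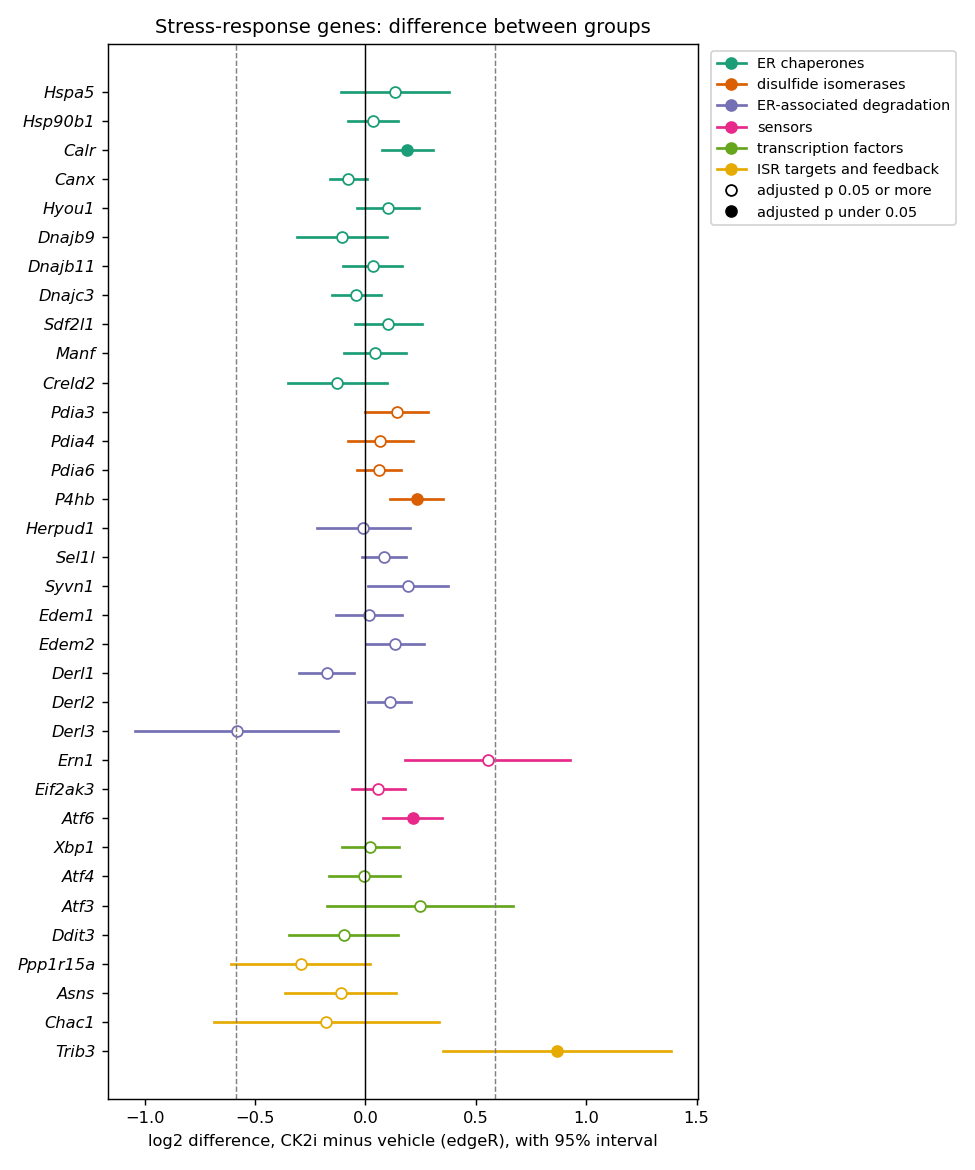
Log2 difference between CK2i and vehicle libraries (x axis; points, with lines for the 95% interval from edgeR) for each of the 34 stress-response genes (y axis), coloured by role, with dashed lines at 1.5-fold and filled points for adjusted p under 0.05. Filled points mark Calr, P4hb, Atf6 and Trib3, and 28 of the 34 intervals stay between the dashed lines.

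Per length of transcript, the abundant folding machinery stood far above the regulators. In vehicle libraries Calr led with 879.8 ± 55.8 FPKM (SD, n = 5), followed by Hspa5 with 608 ± 54.6, Canx with 477 ± 15.5, Hsp90b1 with 339 ± 14.7 and P4hb with 306 ± 18.0 FPKM. Of these, only Hsp90b1 and P4hb overlapped in range over the 5 libraries. Calr reached percentile 98.8 of the tested genes by vehicle FPKM. The sensors were far lower, with 12.5 ± 0.672 FPKM for Atf6, 12.1 ± 1.76 for Ern1 and 9.66 ± 0.815 for Eif2ak3. Atf4 was abundant for a transcription factor gene of the list, at 163 ± 8.73 FPKM, and Xbp1 was at 86.3 ± 3.65, while Ddit3 was at 22.8 ± 3.47 and Atf3 at 3.67 ± 0.588 FPKM. Chac1 and Trib3 closed the order with 0.534 ± 0.0956 and 0.274 ± 0.0899 FPKM. Of the 33 pairs of neighbours in this order, 23 overlapped in range, most of them in the middle of the list between Pdia6 and Sel1l. Together the 34 genes took 0.90% to 1.05% of a library's scaled counts.

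Among the 11 ER chaperones and their co-factors, Calr rose, and none of the other 10 passed in either direction. Calr (calreticulin; ENSMUSG00000003814; chromosome 8, 84841850 to 84846934, GRCm38) binds glycoproteins and calcium in the ER lumen. In vehicle libraries 1 to 5, Calr was at 1371, 1442, 1325, 1243 and 1207 CPM, and in CK2i libraries 1 to 5 at 1493, 1457, 1507, 1444 and 1613 CPM. The groups did not overlap, but the lowest CK2i library, CK2i 4, lay only just above the highest vehicle library, vehicle 2. The means were 1318 ± 95 and 1503 ± 66.7 CPM (SD, n = 5 per group), which gave 0.19 ± 0.05 log2 (SE; edgeR adjusted p = 0.0421). Its membrane-bound partner Canx (calnexin), which binds the same glycans, was lower in 3 CK2i libraries than in all vehicle libraries. Levels of Canx were 1313, 1282, 1232, 1248 and 1322 CPM in vehicle 1 to 5, and 1149, 1199.5, 1196, 1282 and 1238 CPM in CK2i 1 to 5. The log2 difference of Canx was -0.08 ± 0.04 (edgeR adjusted p = 0.176).

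Hspa5 did not pass, and its CK2i libraries were far apart. From the first to the fifth library, Hspa5 measured 1485, 1184, 1289, 1214 and 1378 CPM in vehicle, and 1229, 1187, 1810.2, 1428 and 1542 CPM in CK2i. Library CK2i 3 was the highest of all, while CK2i 2 lay beside the lowest vehicle library. The log2 difference was 0.14 ± 0.11 (edgeR adjusted p = 0.405). For Hsp90b1, the ER member of the HSP90 family, the means were 880.0 ± 41.6 and 902 ± 59.1 CPM (adjusted p = 0.643 by edgeR). Hyou1, a large chaperone that exchanges nucleotide on BiP, was at 352 ± 28.7 and 379 ± 26.5 CPM, and Sdf2l1, part of a BiP complex, at 69.5 ± 5.27 and 74.7 ± 6.53 CPM. The J-domain co-chaperones of BiP, which deliver substrates to it, differed by -0.10 (Dnajb9), 0.03 (Dnajb11) and -0.04 (Dnajc3) log2, with adjusted p of 0.445, 0.724 and 0.598. The secreted stress factors Manf and Creld2 differed by 0.04 ± 0.06 and -0.13 ± 0.10 log2 (edgeR adjusted p = 0.653 and 0.401). Manf overlaps Dcaf1 on the opposite strand, and without strand-aware counting their reads would mix; the sources used here give no strand setting.

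The ER stress response element (ERSE), through which ATF6 and the factor NF-Y act on chaperone promoters, consists of CCAAT and CCACG with a spacer of 9 bases. It was searched on both strands, with any base allowed in the spacer, in the 250 bases before the RefSeq start of each gene (sequences from RefSeq, GRCm38.p6). Among genes in which a searched element was found, this start lies inside the gene as GENCODE draws it for Hspa5 (by 120 bases), Hsp90b1 (65), Asns (45), Pdia6 (44), Chac1 (13), Calr (3) and Atf3 (34706). The same holds for Pdia3, Dnajb9, Ern1, Ddit3 and 1 of 2 starts of Derl2. Promoters were found for 30 of the 34 members; none was at hand for Atf6, Derl1, Hyou1 and Manf. The element was present in 9 of the 30 (30%), beside 0.113% of all 32851 promoters of that length. The sites are shown as a sequence feature that these 9 genes share. The list was drawn from genes of the response in which the element acts, so these shares do not test the element. Each site is written from CCAAT to CCACG with these fixed letters in capitals, and Hsp90b1 had 1 on each strand.
Hspa5: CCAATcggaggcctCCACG
Hsp90b1 forward strand: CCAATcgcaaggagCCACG
Hsp90b1 reverse strand: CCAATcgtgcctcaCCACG
Calr: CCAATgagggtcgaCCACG
Canx: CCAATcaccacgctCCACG
Pdia6: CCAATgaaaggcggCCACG
Dnajc3: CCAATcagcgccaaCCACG
Creld2: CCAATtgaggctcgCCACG
Syvn1: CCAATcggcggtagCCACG
Derl3: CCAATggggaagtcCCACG

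Genes with the element did not share a direction. Calr rose, whereas Hspa5, Hsp90b1, Canx, Pdia6, Dnajc3, Creld2, Syvn1 and Derl3 did not pass, with log2 differences from -0.58 (Derl3) to 0.19 (Syvn1). The median was 0.04 over these 9 genes and 0.06 over the other 21 with a promoter. The related element ERSE-II, ATTGG and CCACG with 1 base between, was found in 1 member, Herpud1, beside 0.0304% of all promoters. The core TGACGTG, bound by XBP1 and ATF6, was found in 1 member as well, Hspa5 (in 1.65% of all promoters). The amino acid response element through which ATF4 acts, searched as TGATGNAA, was found in 4 members, Asns, Atf3, Chac1 and Herpud1, beside 3.45% of all promoters; 0 of these 4 passed the test by edgeR, DESeq2 or limma, or at an unadjusted p under 0.05. All were searched on both strands, and no site found overlapped another. A match of letters is a description of the promoter and no evidence of binding.

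The promoters of 4 genes are given in full for comparison: Calr and Canx, partners that both hold the element but of which only Calr was called, and P4hb and Trib3, both called higher but without any of the searched letters in this window. They are written on the strand of the gene, 250 bases up to the base before the RefSeq start, with the ERSE letters in capitals. They lie at chr8:84846932-84847181 (Calr, minus strand), chr11:50325674-50325923 (Canx, minus strand), chr11:120573254-120573503 (P4hb, minus strand) and chr2:152344061-152344310 (Trib3, minus strand) of GRCm38.
Calr: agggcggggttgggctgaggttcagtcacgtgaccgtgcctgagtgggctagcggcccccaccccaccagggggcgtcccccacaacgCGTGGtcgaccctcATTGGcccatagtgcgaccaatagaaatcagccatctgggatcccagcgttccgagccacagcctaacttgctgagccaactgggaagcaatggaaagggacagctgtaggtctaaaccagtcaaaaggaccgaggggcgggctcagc
Canx: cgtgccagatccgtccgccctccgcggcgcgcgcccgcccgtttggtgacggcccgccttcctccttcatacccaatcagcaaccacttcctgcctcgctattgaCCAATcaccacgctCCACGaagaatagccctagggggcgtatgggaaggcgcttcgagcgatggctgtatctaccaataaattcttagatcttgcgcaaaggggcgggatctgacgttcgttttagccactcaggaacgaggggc
P4hb: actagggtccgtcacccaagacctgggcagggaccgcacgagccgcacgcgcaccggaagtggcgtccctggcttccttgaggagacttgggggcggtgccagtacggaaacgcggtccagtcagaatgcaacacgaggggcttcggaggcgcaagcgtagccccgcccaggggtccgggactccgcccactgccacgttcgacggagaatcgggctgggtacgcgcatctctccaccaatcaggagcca
Trib3: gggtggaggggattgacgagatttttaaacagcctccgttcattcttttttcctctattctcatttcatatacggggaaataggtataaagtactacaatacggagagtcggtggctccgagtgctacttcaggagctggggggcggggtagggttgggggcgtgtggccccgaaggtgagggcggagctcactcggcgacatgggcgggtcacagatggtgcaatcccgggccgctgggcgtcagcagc

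Of the 4 protein disulfide isomerases, which form and rearrange disulfide bonds in the ER, P4hb rose and Pdia3, Pdia4 and Pdia6 did not pass; all 4 log2 differences were above 0, between 0.06 and 0.23. P4hb (ENSMUSG00000025130; chromosome 11, 120560298 to 120573253) encodes the founding isomerase PDI. P4hb stood at 843, 875, 823, 813 and 740.2 CPM in vehicle libraries 1 to 5 and at 957, 988, 905, 911 and 1049.7 CPM in CK2i libraries 1 to 5. The groups did not overlap. The means were 819 ± 50 and 962 ± 59.7 CPM (SD, n = 5 per group), a log2 difference of 0.23 ± 0.05 (edgeR adjusted p = 0.0263). Pdia3, the isomerase that works with calreticulin and calnexin, was above all vehicle libraries in 3 CK2i libraries. In vehicle libraries 1 to 5, Pdia3 was at 439.7, 448, 415, 412 and 422 CPM, and in CK2i libraries 1 to 5 at 420.4, 494, 429.5, 472 and 542 CPM. Its log2 difference was 0.14 ± 0.07 (edgeR adjusted p = 0.154). Within each group the 4 isomerases were highest in the same library, vehicle 2 among vehicle and CK2i 5 among CK2i libraries. These were the highest of their group for 21.3% and 17.8% of all tested genes.

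Genes of primary granules, the secretory stores of promyelocytes, moved with these values. Of the 6 granule markers Mpo, Elane, Prtn3, Ctsg, Ms4a3 and Ctsc, 5 rose by edgeR (all but Ctsc; all tested genes 6.43%), 6 by DESeq2 and 2 by limma. With 1 library left out, Mpo and Elane were called in 2, Prtn3 in 3, Ctsg in 6 and Ms4a3 in 10 of the 10 fits. Summed levels were 2684 to 5481 CPM in vehicle and 5027 to 8149 CPM in CK2i libraries, and none was at 0. Vehicle 2 held the highest sum of the vehicle libraries (5481 CPM) and vehicle 5 the lowest (2684 CPM), as for P4hb. Among CK2i libraries the sum was highest in CK2i 2 and CK2i 5 (8149 and 7757 CPM), the libraries with most P4hb, and lowest in CK2i 3 (5027 CPM), the library with least. Calr shared the order's ends in the vehicle group but not in CK2i, where CK2i 2 held the second-lowest Calr and CK2i 3 the second-highest. These ends were not particular to granule genes. The monocyte markers (Csf1r, Ly86, Cd14, Ccr2, F13a1 and Irf8) summed to 843 CPM in vehicle 2, the highest, and 525 in vehicle 5, the lowest. In CK2i 5 and 2 they summed to 1089 and 1040 CPM, the highest, and in CK2i 3 to 742, the lowest. Of these markers Cd14 alone rose by edgeR. Mature neutrophil markers had the same ends in CK2i but not in vehicle libraries. The part of any of these cells in the result was not tested.

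In the pathway that returns misfolded proteins to the cytosol for degradation, 0 of 8 genes passed by edgeR, beside 13.2% of all tested genes. At an unadjusted p under 0.05 by edgeR there were 5, beside 34.6% of all tested genes. DESeq2 called Derl1 and Derl3 lower and limma none. The 3 Derlin genes, which encode membrane proteins of the exit channel, did not move alike. For Derl1, 4 of 5 CK2i libraries lay below all vehicle libraries. Levels of Derl1 were 194, 183, 194, 186 and 209 CPM in vehicle 1 to 5, and 178, 155, 188, 172 and 164 CPM in CK2i 1 to 5. The log2 difference was -0.18 ± 0.06 (edgeR adjusted p = 0.0603). Derl2 was at 37.3 ± 1.56 and 40.3 ± 1.56 CPM, 0.11 ± 0.04 log2 (adjusted p = 0.104 by edgeR). In FPKM its means were nearly equal, 18.1 ± 0.505 in vehicle and 18.2 ± 0.730 in CK2i libraries. Derl2 overlaps Mis12 on the opposite strand by 231 bases.

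The summed level of megakaryocyte genes ranked the libraries as Derl1 did. Of the 6 markers Pf4, Itga2b, Gp9, Gp1bb, Ppbp and Tubb1, 3 fell by edgeR (Gp9, Ppbp and Tubb1; all tested genes 6.76%), 4 by DESeq2 and 1 by limma. With 1 library left out, Gp9 and Ppbp were called in 2 and Tubb1 in 3 of the 10 fits. Summed levels were 2097 to 3287 CPM in vehicle and 1185 to 2523 CPM in CK2i libraries, and none of the markers was at 0. The order ran from vehicle 5 (3287 CPM) through CK2i 3 (2523 CPM, the fourth) down to CK2i 5 and CK2i 2 (1412 and 1185 CPM). The leading principal component over all tested genes also had vehicle 5 at one end and CK2i 2 and CK2i 5 at the other. CK2i 2 was the lowest of all libraries for 19.6% of all tested genes. The part of megakaryocyte genes in the result was not tested.

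Derl3, the Derlin of strongly secreting cells, had the most negative difference of all 34 genes without passing. From the first to the fifth library, Derl3 measured 4.79, 4.61, 4.61, 5.91 and 4.25 CPM in vehicle, and 3.68, 2.19, 4.99, 2.56 and 2.68 CPM in CK2i. Libraries CK2i 2, 4 and 5 lay well below all vehicle libraries, whereas CK2i 3 lay within their range. The log2 difference was -0.58 ± 0.21 (edgeR adjusted p = 0.0804; 0.0146 without CK2i 3). Some plasma cell genes were also high in CK2i 3 and low in CK2i 2, 4 and 5. Of 10 markers (Jchain, Sdc1, Prdm1, Irf4, Mzb1, Tnfrsf17, Igkc, Ighm, Pou2af1 and Tnfrsf13b) 1 fell, Jchain, while Sdc1 and Tnfrsf13b had differences above 0 (0.20 and 0.33 log2, not passed), and summed levels were 2349.7 to 3203 CPM in vehicle and 1379 to 4272 CPM in CK2i libraries. CK2i 3 held the highest sum, 4272 CPM, of which Ighm made 3119 CPM, and CK2i 2, 4 and 5 the lowest, 1379, 1448 and 1445 CPM; none of the markers was at 0. In the vehicle group the sum was highest in vehicle 2 and Derl3 in vehicle 4. Their part in the result was not tested.

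The remaining degradation genes differed by less. Sel1l and Syvn1, adaptor and ubiquitin ligase of the same complex, were at 141 ± 2.61 and 149 ± 9.76 CPM and at 31.7 ± 2.91 and 36.2 ± 3.63 CPM (edgeR adjusted p = 0.214 and 0.123). Syvn1 overlaps Mrpl49 on the opposite strand by 91 bases. Edem1 and Edem2, which trim mannose from misfolded glycoproteins, differed by 0.01 ± 0.07 and 0.13 ± 0.06 log2 (edgeR adjusted p = 0.899 and 0.133). Herpud1, a scaffold induced by both arms of the response, was at 104 ± 6.89 and 104 ± 16.5 CPM, -0.01 ± 0.10 log2 (adjusted p = 0.959 by edgeR). Of its CK2i libraries, CK2i 3 was the highest at 131 CPM and CK2i 2 the lowest at 88.3 CPM.

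Among the 3 sensors Atf6 rose by edgeR, Ern1 came close to the threshold and Eif2ak3 did not pass. DESeq2 called both Atf6 and Ern1 higher, and limma called neither. Atf6 (ENSMUSG00000026663; chromosome 1, 170704674 to 170867771) encodes the sensor that is cut into a transcription factor. Atf6 stood at 85.3, 88.0, 89.5, 93.1 and 81.0 CPM in vehicle libraries 1 to 5 and at 99.9, 109.6, 88.7, 99.9 and 109 CPM in CK2i libraries 1 to 5. Library CK2i 3 lay within the vehicle range and the other 4 above it. The means were 87.4 ± 4.58 and 101 ± 8.48 CPM (SD, n = 5 per group), 0.21 ± 0.06 log2 (edgeR adjusted p = 0.0433). Ern1 had the largest difference of the sensors. In vehicle libraries 1 to 5, Ern1 was at 49.6, 66.6, 71.0, 60.7 and 47.2 CPM, and in CK2i libraries 1 to 5 at 72.2, 115, 68.2, 72.4 and 105 CPM. Libraries CK2i 2 and CK2i 5 were far above the rest, and CK2i 3 lay within the vehicle range. The log2 difference was 0.55 ± 0.17 (edgeR adjusted p = 0.0528), 0.26 with CK2i 2 and CK2i 5 left out (0.287) and 0.63 with CK2i 3 left out (0.0291). Eif2ak3, the gene of PERK, was at 39.2 ± 2.40 and 40.8 ± 2.19 CPM, with an interval of 0.958 to 1.13 times the vehicle level (adjusted p = 0.468 by edgeR). Among CK2i libraries the granule sums given above were also highest in CK2i 2 and CK2i 5 and lowest in CK2i 3, as for Atf6 and Ern1. The monocyte sums shared these ends. Among vehicle libraries the granule sum was highest in vehicle 2, Atf6 in vehicle 4 and Ern1 in vehicle 3, and all were lowest in vehicle 5. The part of these cells was not tested.

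None of the 4 transcription factor genes passed by edgeR, DESeq2 or limma, or at an unadjusted p under 0.05. Xbp1 was at 145 ± 6.5 and 147 ± 12.8 CPM (edgeR adjusted p = 0.812), an interval of 0.929 to 1.11 times the vehicle level for the sum of its spliced and unspliced forms. Atf4 was at 254 ± 14.6 and 253 ± 29.0 CPM (adjusted p = 0.972 by edgeR; interval 0.892 to 1.11-fold). For Ddit3, the gene of the death-promoting factor CHOP, the difference between the means was smaller than the spread of the libraries. Levels of Ddit3 were 15.9, 13, 16.4, 16.5 and 19.5 CPM in vehicle 1 to 5, and 15.8, 12.9, 17.7, 15.6 and 13.8 CPM in CK2i 1 to 5. The groups overlapped through most of their range, with a log2 difference of -0.10 ± 0.11 (edgeR adjusted p = 0.556) and an interval of 0.787 to 1.11 times the vehicle level. Ddit3 overlaps Mars, a far more abundant gene, by 68 bases on the opposite strand. Atf3, an early stress factor, was at 6.59 ± 1.11 and 7.82 ± 2.25 CPM (edgeR adjusted p = 0.378), highest in CK2i 3 at 11.2 CPM.

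Of 4 targets and feedback genes of the integrated stress response, Trib3 rose and the other 3 had negative differences that did not pass. Trib3 (ENSMUSG00000032715; chromosome 2, 152337422 to 152344032) was scarce. The vehicle libraries, 1 to 5, held 19, 16, 9, 23 and 19 reads, and the CK2i libraries, 1 to 5, held 37, 32, 25, 27 and 27 reads. As CPM these were 0.440, 0.426, 0.224, 0.561 and 0.489 in vehicle and 0.995, 0.789, 0.630, 0.713 and 0.796 in CK2i, and the groups did not overlap. The log2 difference was 0.87 ± 0.24 (edgeR adjusted p = 0.0391), with an interval of 1.28 to 2.61 times the vehicle level. On the log2(FPKM + 1) scale, which compresses values this low, the difference was 0.23 and did not pass (limma adjusted p = 0.0599). Chac1, a glutathione-degrading enzyme that ATF4 induces and which was also scarce, was at 0.786 ± 0.137 and 0.695 ± 0.202 CPM (edgeR adjusted p = 0.614).

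Ppp1r15a encodes the phosphatase subunit that reverses eIF2 phosphorylation. From the first to the fifth library, Ppp1r15a measured 110.3, 103, 133, 138 and 151 CPM in vehicle, and 105, 83.1, 140.0, 98.0 and 92.5 CPM in CK2i. Libraries CK2i 2, 4 and 5 lay below all vehicle libraries, and CK2i 3 near the top of the vehicle range. The log2 difference was -0.29 ± 0.14 (edgeR adjusted p = 0.169; 0.0286 without CK2i 3). Immediate-early genes, which many stimuli induce within minutes, moved with Ppp1r15a across part of the libraries. Of the 8 listed (Fos, Fosb, Jun, Junb, Egr1, Ier2, Dusp1 and Zfp36) 0 passed by edgeR (0 at an unadjusted p under 0.05; DESeq2 0, limma 0), with summed levels of 1543 to 2162 CPM in vehicle and 1525 to 2508 CPM in CK2i libraries. Among vehicle libraries the sum was lower in vehicle 1 and 2 (1543 and 1576 CPM) than in vehicle 4 and 5 (2162 and 2153 CPM), as for Ppp1r15a. Of all libraries it was highest in CK2i 3 (2508 CPM), whereas Ppp1r15a was highest in vehicle 5. In CK2i 2, the library with least Ppp1r15a, the sum was 1748 CPM, above vehicle 1 and 2. None of the 8 genes was at 0, and their part in the result was not tested. Asns, asparagine synthetase and a classic target of ATF4, was at 196 ± 23.6 and 181 ± 29.0 CPM, -0.11 ± 0.11 log2 (adjusted p = 0.508 by edgeR), lowest in CK2i 2 and CK2i 5.

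**Figure D2:**
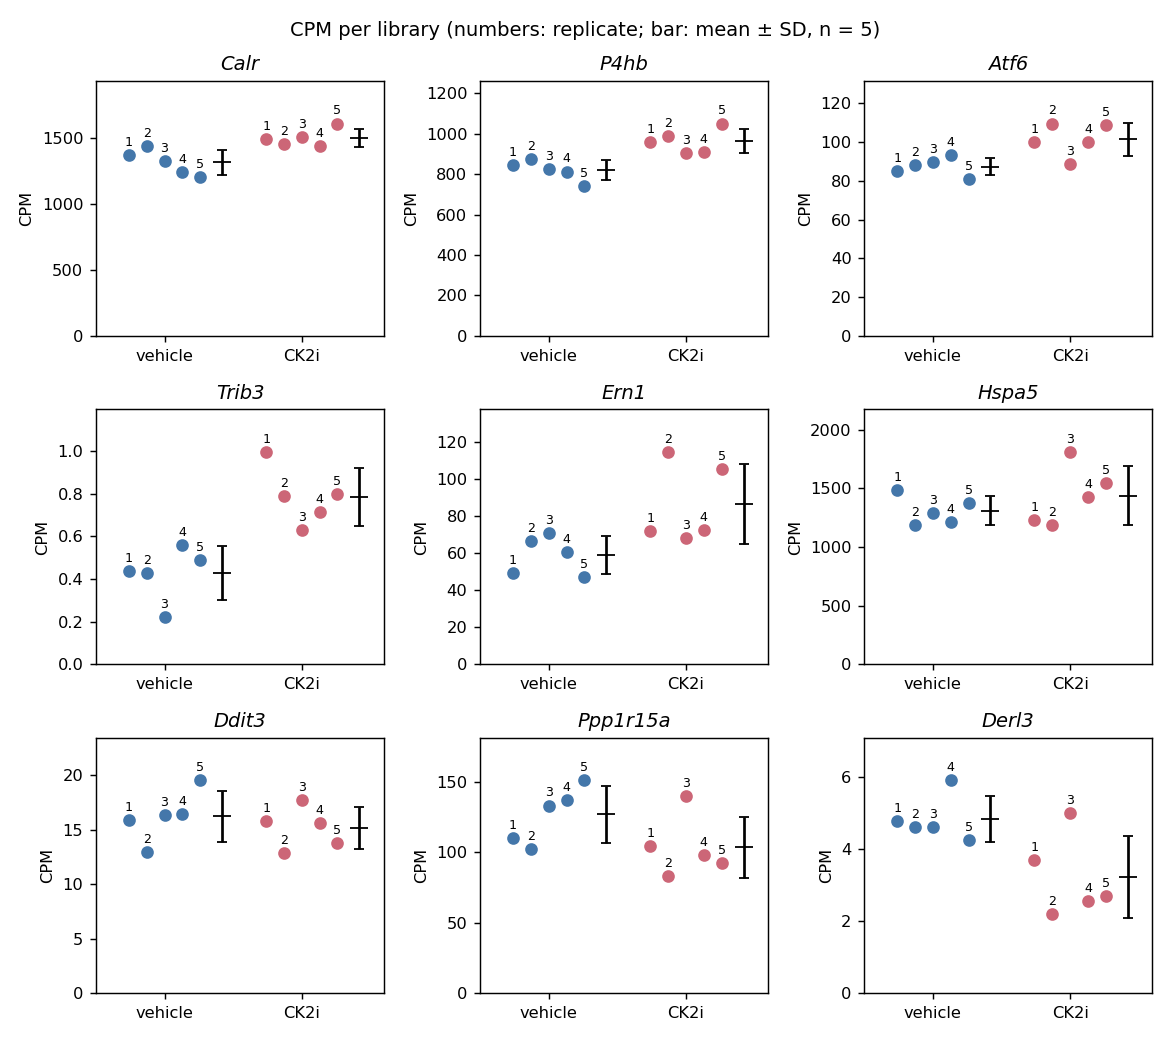
CPM (y axis, from 0) of 9 stress-response genes in each library, for the vehicle and CK2i groups (x axis), with replicate numbers at the points and the mean ± SD (n = 5) as a bar. The groups are apart for Calr, P4hb and Trib3, CK2i 3 falls within the vehicle range for Atf6, Ern1 and Derl3, and Hspa5, Ddit3 and Ppp1r15a overlap.

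Within the groups, libraries differed by the roles of the genes. Library CK2i 3 held the highest value of the CK2i group for 19 of 34 genes, where it did so for 22.8% of all tested genes. These took in 7 of 11 chaperones, among them Hspa5, Hyou1, Manf and Creld2, 6 of 8 degradation genes and all 4 transcription factor genes, but 0 of the 4 disulfide isomerases. CK2i 3 also held the highest value of all 10 libraries for 12 genes, where it did so for 7.72% of all tested genes. CK2i 5 was the highest of the CK2i group for 10 genes, all 4 isomerases, Calr, Hsp90b1 and Sdf2l1 among them (beside 17.8% of all tested genes). In the vehicle group, vehicle 1 was the highest for 8 of 11 chaperones (21.7% of all tested genes) and vehicle 2 for the 4 isomerases (21.3%).

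Averaged over the 11 chaperones, log2 CPM relative to the vehicle mean was 0.17 in CK2i 3 and 0.10 in CK2i 5, 0.11 in vehicle 1, and between -0.06 and -0.03 in the other 3 CK2i libraries. For the transcription factors it was 0.35 in CK2i 3, 0.11 in CK2i 1 and -0.14 to -0.07 in CK2i 2, 4 and 5. For the 3 sensors it was -0.14 to 0.13 in vehicle and 0.11 to 0.45 in CK2i libraries, highest in CK2i 2 and CK2i 5, and for the 4 isomerases -0.09 to 0.10 and 0.06 to 0.28, highest in CK2i 5. The median coefficient of variation over the 34 genes was 7.97% in vehicle and 8.53% in CK2i libraries, beside 7.72% and 10.3% for all tested genes.

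Heat shock genes of the cytosol were also high in CK2i 3, although not there alone. The inducible Hspa1a stood at 302, 177 and 629.8 CPM in CK2i 3, 4 and 5, against 5.16 and 31 CPM in CK2i 1 and 2; it cannot be told cleanly from the near-identical Hspa1b. Both rose by edgeR (all tested genes 6.43%); DESeq2 called 2 genes of the heat shock list higher and limma 0. They were called in 5 and 4 of the 10 fits without 1 library. The list held 8 cytosolic heat shock genes: Hspa1a, Hspa1b, Dnajb1, Hsph1, Hsp90aa1, Hspa8, Bag3 and Hspb1, the last too scarce to be tested. Summed over all 8, levels were 6316 to 8263 CPM in vehicle and 5542 to 8855 CPM in CK2i libraries. The sum was 8855 CPM in CK2i 3, 8260.1 in CK2i 5 and 8263 in vehicle 1. These are the libraries in which the ER chaperones were highest. Most of each sum came from Hspa8 and Hsp90aa1 (5484 and 2518 CPM in vehicle 1), and neither gene passed. Hspa1a did not follow the ER chaperones in all libraries. It was at 8.63 CPM in vehicle 1, and at 177 CPM in CK2i 4, where the chaperone average was -0.03 log2. The part of the heat shock genes in the ER values was not tested.

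**Figure D3:**
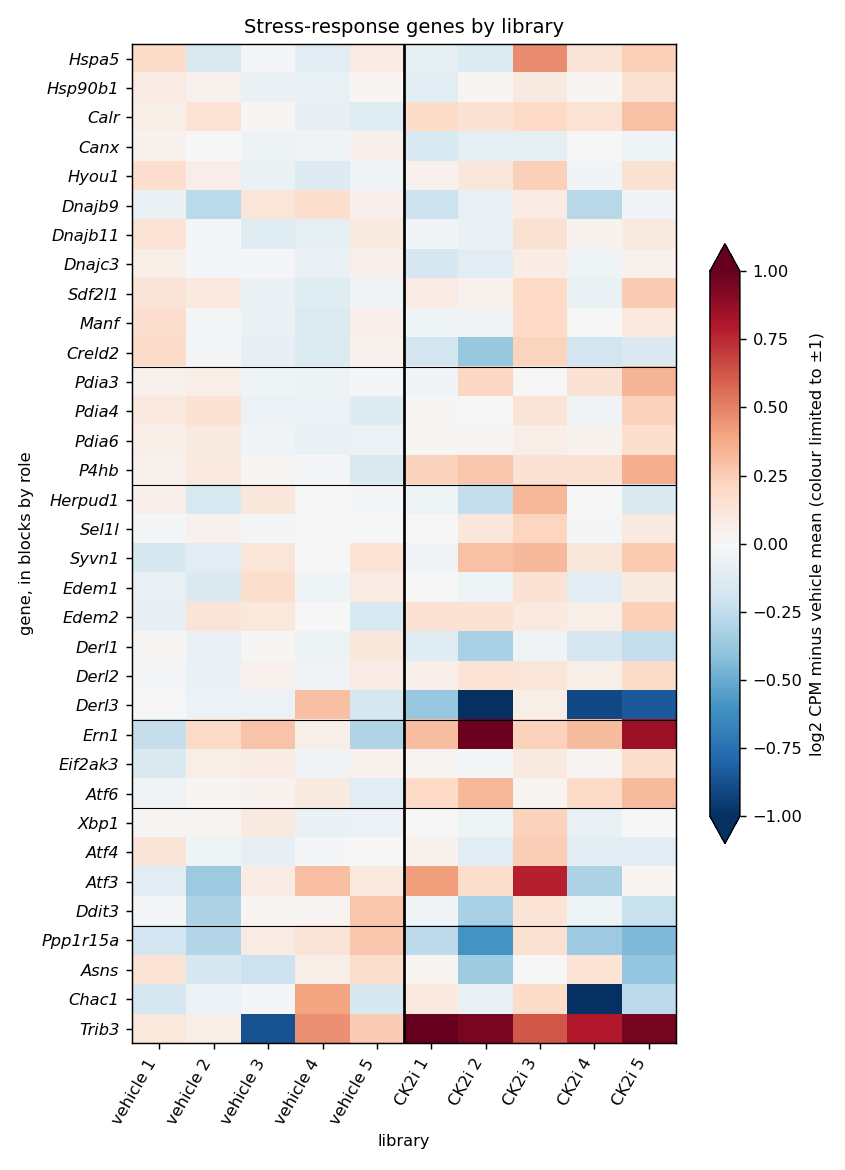
Colour map of log2 CPM minus the vehicle mean for 34 stress-response genes (rows, in blocks by role) in 10 libraries (columns; line between vehicle and CK2i), with colours limited to ±1. CK2i 3 is high for Hspa5, Herpud1, Xbp1, Atf4 and Atf3, CK2i 5 for the disulfide isomerases, and CK2i 2 and CK2i 5 for Ern1.

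**Figure D4:**
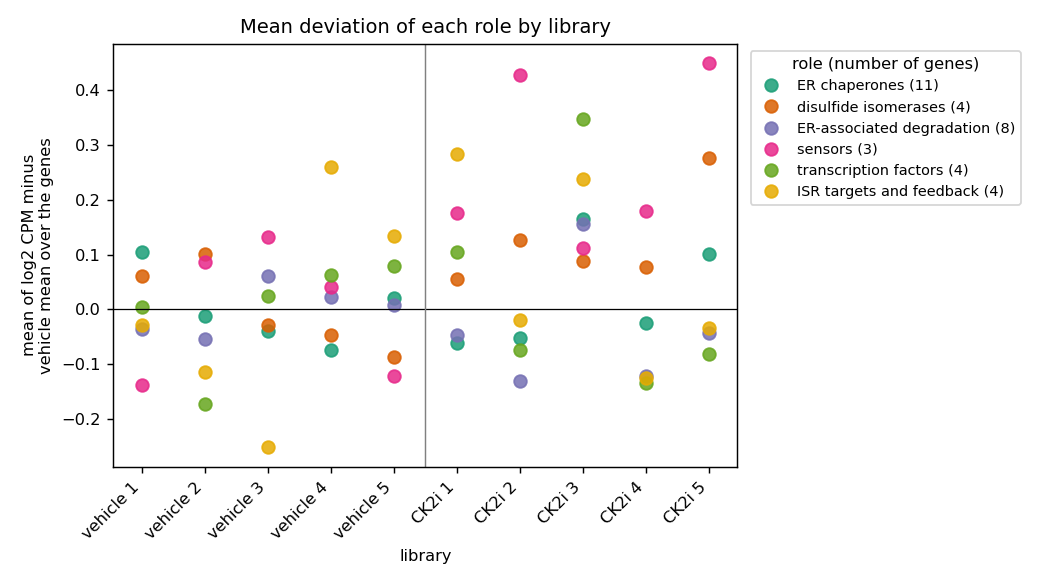
Mean over the genes of each role of log2 CPM minus the vehicle mean (y axis) in each of 10 libraries (x axis), 1 point per role and library, coloured by role. The sensors reach 0.43 and 0.45 in CK2i 2 and 5, the transcription factors 0.35 in CK2i 3, and the chaperones stay between -0.07 and 0.17.

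Beyond the 34 genes, 138 other genes of these pathways were listed in 7 groups, and 136 were tested. Of these 12 rose and 4 fell, 11.8% in all beside 13.2% of all tested genes, with a median log2 difference of 0.02. Most calls, 7 higher and 2 lower of 28, were among further targets of ATF4 and CHOP, whose median was 0.10. The share higher there was 25%, beside 6.43% of all tested genes. Amino acid carriers led: Slc1a5, a glutamine carrier, went up from 119 ± 4.55 to 138 ± 5.06 CPM (mean ± SD, 5 libraries each; 0.21 ± 0.04 log2, edgeR adjusted p = 0.0166). Slc7a11, the cystine carrier, rose from 1.95 ± 0.213 to 3.68 ± 1.00 CPM (adjusted p = 0.0167 by edgeR), and Slc7a1, a carrier of arginine and lysine, from 102 ± 9.32 to 130.3 ± 14.1 CPM (0.0258). Slc1a5 and Slc7a11 were called in all 10 fits without 1 library and Slc7a1 in 6. The groups did not overlap for these 3 carriers, with CK2i higher, as for 5.18% of all tested genes. Leaving out 1 library lowered the calls upward in the 7 lists together to 2 (CK2i 5 or vehicle 5), 3 (vehicle 4), 4 (vehicle 1) and 6 (CK2i 2 or vehicle 3), and the calls downward to 0 (CK2i 2, CK2i 5, vehicle 1, vehicle 3, vehicle 4 or vehicle 5) and 1 (vehicle 2); the library left out is in parentheses.

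Other carriers did not pass. Slc7a5 and its heavy chain Slc3a2, which together import large neutral amino acids, differed by 0.03 ± 0.07 and 0.02 ± 0.06 log2 (edgeR adjusted p = 0.786 and 0.865). Ero1l, the oxidase that recharges PDI, rose from 81.0 ± 4.79 to 104 ± 12.9 CPM (adjusted p = 0.0224 by edgeR; 6 of the 10 fits), with the highest values in CK2i 2 and CK2i 5 (118 and 117 CPM). Cebpb and Jdp2, leucine zipper factors, rose by 0.63 and 0.54 log2 (edgeR adjusted p = 0.0224 and 0.0426; called in 6 and 3 of the 10 fits), and Phgdh, the first enzyme of serine synthesis, by 0.24 (adjusted p = 0.0497 by edgeR; 1 of the 10 fits). In the opposite direction, Eif4ebp1, a brake on translation, fell from 62.8 ± 3.59 to 52.7 ± 5.56 CPM (adjusted p = 0.0450 by edgeR), and Aldh18a1, an enzyme of proline synthesis, from 215 ± 12.1 to 179 ± 19.4 CPM (0.0391). Of the 10 fits without 1 library, 3 called Eif4ebp1 and 3 Aldh18a1. The cytosolic aminoacyl-tRNA synthetases, 20 genes that ATF4 is known to raise in part, gave 0 calls by edgeR (2 at an unadjusted p under 0.05, DESeq2 1, limma 1) and lay between -0.12 and 0.18 log2.

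In the list of other XBP1 and ATF6 axis genes 2 of 25 rose (8%) and 1 fell (4%). For this list and those below, 6.43% of all tested genes were called higher and 6.76% lower. Txndc11, a thioredoxin-like protein of the ER, rose from 67.3 ± 2.56 to 77.4 ± 4.04 CPM (edgeR adjusted p = 0.0232), and Wfs1, an ER membrane protein, from 2.28 ± 0.341 to 3.31 ± 0.420 CPM (0.0343), while Fkbp14, a scarce prolyl isomerase, fell from 0.892 ± 0.185 to 0.433 ± 0.146 CPM (0.0299). Of 14 genes of glycosylation and lectin quality control 2 rose. Uggt1, which marks unfolded glycoproteins for another round with calreticulin or calnexin, rose from 228 ± 11.7 to 275 ± 24.8 CPM (adjusted p = 0.0258 by edgeR). The cargo factor Mcfd2 rose by 0.20 log2 (edgeR adjusted p = 0.0391). The groups did not overlap for either, with CK2i higher, as for 5.18% of all tested genes. Of 19 genes of the translocon and signal peptidase, Srp14 of the signal recognition particle fell by 0.19 log2 (edgeR adjusted p = 0.0338). Of 14 genes of eIF2 and its regulators, Eif2ak2, the kinase PKR and an interferon-induced gene, rose by 0.28 log2 (edgeR adjusted p = 0.0441), with CK2i 2 and CK2i 5 the highest. Of the 10 fits without 1 library, Txndc11 kept its call in 6, Wfs1, Fkbp14 and Uggt1 in 4, and Mcfd2, Srp14 and Eif2ak2 in 3. Of 16 other degradation genes 0 passed by edgeR (3 at an unadjusted p under 0.05, DESeq2 2, limma 1).

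**Figure D5:**
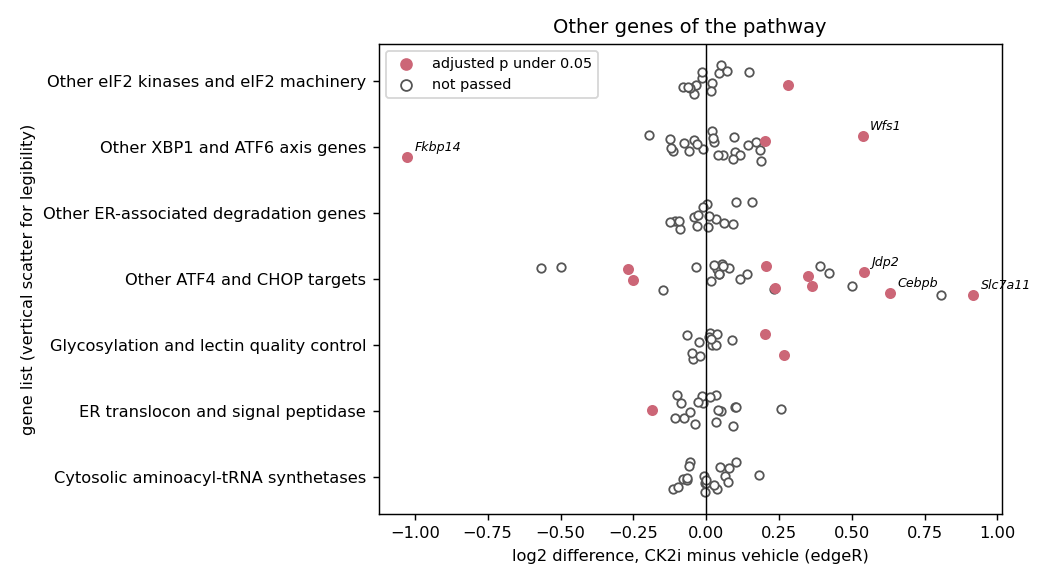
Log2 difference between CK2i and vehicle (x axis) of each tested gene in 7 lists of other pathway genes (y axis, with random vertical scatter within a list), with filled points for adjusted p under 0.05 by edgeR and names for filled points past 0.4. The filled points gather in the list of ATF4 and CHOP targets, up to 0.92 for Slc7a11, and the synthetases stay between -0.12 and 0.18.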

How the data were processed

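The data are bulk RNA sequencing of 5 vehicle and 5 CK2i libraries, from a stranded total RNA kit and paired reads, per the labels. The deposited table holds estimated counts, deposited as whole numbers, and FPKM values, both made by the authors; the submitters' processing notes name Bowtie2, RSEM 1.2.31, build mm10 and DESeq2, without their roles. For annotation, strand setting and filters the sources used here give nothing. The 2 empty lines were left out. Symbols came from GENCODE M21 (GRCm38, also called mm10), with 37570 of 38887 identifiers matched.

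The main comparison used the quasi-likelihood test of edgeR 4.0.16 in R 4.3.3, with TMM scaling, filterByExpr (minimum count 10) and group as the only term, two-sided, with Benjamini-Hochberg adjustment over all tested genes and a threshold of 0.05; the script was tested on simulated data. Standard errors are the log2 difference divided by the square root of F. No libraries of a group agreed within sampling noise (chi-square per degree of freedom 10.9 or more). The genes and lists were chosen with earlier results of these data known. Named were all members, of other pathway genes those that passed (at most 15 by adjusted p; Phgdh, Slc7a5 and Slc3a2 were added after their values were seen), and the genes of marker lists that moved with a member. Alternatives used DESeq2 1.42.0, limma 3.58.1 on log2(FPKM + 1), RLE scaling, no filter, a replicate block, a surrogate variable (sva 3.50.0) and libraries left out. No list was tested as a set. At this depth the spread between libraries (biological coefficient of variation 14.2%) sets the precision of all but the scarcest genes.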

Additional observations from a re-analysis of the deposited data

Results flagged for a closer look

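Of 68 sets of 5 values, 1 for each gene and group, 3 had a library far from the others by Dixon's test at the 95% level, where chance gives about 1 in 20. Xbp1 was at 169 CPM in CK2i 3, with the other CK2i libraries between 137 and 144 CPM. Sel1l was at 145 CPM in vehicle 2, with the other vehicle libraries between 139 and 140.5 CPM. Chac1 was at 1.02 CPM in vehicle 4, with the others between 0.694 and 0.772 CPM.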

How the results depend on the processing

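Of the 34 genes, 4 were called higher and 0 lower, of the other pathway genes 12 and 4, and of all genes 1892. In the same order these counts were 5, 2, 18, 6 and 3169 with DESeq2, 2, 0, 11, 1 and 1193 with limma on log2(FPKM + 1), 1, 0, 7, 3 and 1370 without a filter on low counts, 0, 0, 1, 0 and 30 with 1 surrogate variable (correlation with the group 0.70), and 0, 0, 3, 0 and 175 without CK2i 2 and CK2i 5, a choice made after seeing the data. With the replicate number as a block they were 0, 0, 8, 0 and 1139; same-numbered libraries deviated together with correlations of -0.16 to 0.23, and 1 of 5 vehicle libraries correlated best with its own number, so that the numbers were not taken to pair the libraries. With 1 library left out they ran over 0 to 5, 0 to 4, 2 to 13, 0 to 6 and 446 to 3198. RLE scaling kept all these counts within 1.5 times. The median log2 difference of the 34 genes moved by less than the spread between libraries under every alternative. Of the single-gene differences under alternatives, 497 kept direction and side of the threshold, 47 lost and 8 gained the call and 26 changed sign, none of them of a called gene. The sign changes were those of Herpud1 at 0.0095 with limma; of Creld2 at 0.089, Pdia3 at -0.025, Herpud1 at 0.22, Atf4 at 0.16, Ddit3 at 0.16, Ppp1r15a at 0.015 and Asns at 0.18 with the surrogate variable; and of Herpud1 at 0.10, Atf4 at 0.061, Ddit3 at 0.011 and Asns at 0.039 without CK2i 2 and CK2i 5. With 1 library left out, Herpud1 ran over -0.11 to 0.045, Edem1 over -0.020 to 0.059, Atf4 over -0.075 to 0.029 and Xbp1 over -0.034 to 0.047. The cause of these shifts was not tested. Depth limits Trib3 and Chac1, which had at most 42 reads in a library.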

Other observations

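Within libraries, some partners of the folding and exit machinery differed in proportion. These ratios were chosen after their values were seen and are given without a test. The ratio of Calr to Canx in CPM, the soluble over the membrane-bound lectin chaperone, was 0.913 to 1.12 in vehicle and 1.13 to 1.30 in CK2i libraries, 1.03 ± 0.0808 against 1.24 ± 0.0730 (SD, n = 5 per group). The ratio of Derl1 to Derl2 was 5.06 to 5.31 in vehicle and 3.78 to 4.64 in CK2i libraries, 5.18 ± 0.114 against 4.26 ± 0.409. In CPM the groups did not overlap for either, CK2i 3 included. In FPKM the Derl1 to Derl2 ratios of the groups did overlap, and CK2i 1 and CK2i 3 lay within the vehicle range. In CPM again, the ratio of P4hb to Pdia6 was 2.03 to 2.24 in vehicle and 2.27 to 2.57 in CK2i libraries, without overlap. That of Ern1 to Eif2ak3, the sensors IRE1 and PERK, was 1.17 to 1.72 in vehicle and 1.64 to 2.98 in CK2i libraries, with overlap.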
